A study of Mus musculus with 8 samples.

Results

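The zinc finger genes of mouse chromosomes 7, 13 and 17 were described by the open chromatin at their ends in cultured cortical neurons. They are the 163 protein-coding genes of the RefSeq gene table (GRCm38.p6) on these chromosomes whose symbol is Zfp followed by a number, of 21883 protein-coding genes in all. Chromosome 7 holds 90 of them, chromosome 13 holds 32 and chromosome 17 holds 41. Another 204 genes with such symbols lie on other chromosomes. Members were chosen by name and position. No peak value enters this rule, but it was set with earlier results of these data known.

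Open chromatin was mapped by ATAC-seq, in which the transposase Tn5 cuts accessible DNA and leaves sequencing adapters there, in primary neurons from the cortex of E16.5 mouse embryos. Brg1 WT neurons (WT) and Brg1-cko neurons (cKO; BAF53bCre Brg1F/F) were taken on day 6 in vitro, either with no KCl (called basal here) or 1 h after KCl was added to 50 mM. In the cKO the floxed Brg1 alleles are deleted by Cre under BAF53b, a gene of the neuronal form of the BAF chromatin remodelling complex, so cells in the culture that do not express BAF53b keep Brg1. For depolarisation, TTX (1 µM) and APV (100 µM) were given on day 5 to silence spontaneous firing, and the labels do not say whether the basal cultures received them too. Each condition had 2 libraries of 50000 cells, but 1 peak list, so none of the values below has a replicate error and no test between conditions was possible. Intervals are exact 95% Clopper-Pearson intervals and cover counting error only.

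Most Zfp genes encode C2H2 zinc finger proteins, in which a row of fingers, each folded around a zinc ion, reads DNA bases. Many of those in the clusters of chromosomes 7, 13 and 17 also carry a KRAB domain, which recruits the corepressor TRIM28 (KAP1) and, through it, the histone H3K9 methyltransferase SETDB1. KRAB zinc finger proteins are best known for silencing transposable elements, and their genes arose largely by tandem duplication, so that neighbours often resemble each other.

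A gene-end peak is a deposited peak no further than 1 kb from an annotated end of a gene, at either side, and a gene's value in a list is the fold of its strongest gene-end peak over the local background at the summit. The fold is the authors' own value and ranks peaks within a list. The basal WT list had 34061 peaks, KCl WT 20229, basal cKO 20484 and KCl cKO 25690. The local background that the peak caller used most often was 9.30, 8.23, 9.47 and 8.36 fragments in the same order, so basal cKO had the highest background and few peaks. The members' gene-end peaks rested on a median of 38, 32, 35 and 36 fragments at the summit, with a range over the lists from 22 to 87. Smarca4, the gene of Brg1, had a peak at its lower-coordinate end in every list, with a fold of 4.89 in basal WT, 5.32 in KCl WT, 5.21 in basal cKO and 5.62 in KCl cKO, which says nothing of the deleted exons. Gene-end peaks were listed for 8, 7, 7 and 7 of 12 cortical neuron markers and for 0 of 6 microglial markers in all lists. Of 6 astrocyte markers 4, 2, 1 and 2 had one, of 6 oligodendrocyte markers 3, 2, 3 and 2, of 6 endothelial markers 1, 1, 3 and 2, and of 6 progenitor markers 4, 2, 3 and 4. Over all genes, 46.5, 39.8, 38.8 and 45.2% had a gene-end peak in these lists. The part of other cell types in the lists was not tested.

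The sequences in front of 4 member starts are given as examples of member promoters. They are read 5′ to 3′ on the gene's own strand up to the base before the annotated gene, from RefSeq (GRCm38.p6), with each CpG in capitals. Zfp788 (chr7:41633281-41633530, + strand) and Zfp143 (chr7:110061452-110061688, + strand) had high folds in all 4 lists. Zfp719 (chr7:43579336-43579558, + strand) led the members with a peak in basal WT and none in basal cKO. Zfp101 (chr17:33394638-33394887, - strand) led those with a peak in KCl cKO and none in basal cKO.
Zfp788: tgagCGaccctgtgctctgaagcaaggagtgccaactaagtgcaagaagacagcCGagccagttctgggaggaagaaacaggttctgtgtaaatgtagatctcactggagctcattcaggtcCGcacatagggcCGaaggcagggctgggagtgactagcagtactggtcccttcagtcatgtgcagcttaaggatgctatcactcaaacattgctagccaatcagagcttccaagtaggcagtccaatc
Zfp143: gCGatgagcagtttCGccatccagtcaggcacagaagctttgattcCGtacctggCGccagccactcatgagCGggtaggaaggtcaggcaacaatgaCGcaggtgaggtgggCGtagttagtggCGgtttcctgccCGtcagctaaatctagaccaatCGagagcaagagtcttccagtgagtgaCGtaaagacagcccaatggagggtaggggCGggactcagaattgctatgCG
Zfp719: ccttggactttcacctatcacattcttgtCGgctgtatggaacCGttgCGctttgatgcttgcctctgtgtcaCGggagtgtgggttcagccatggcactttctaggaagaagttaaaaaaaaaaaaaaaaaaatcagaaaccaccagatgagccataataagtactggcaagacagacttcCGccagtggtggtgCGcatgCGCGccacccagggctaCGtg
Zfp101: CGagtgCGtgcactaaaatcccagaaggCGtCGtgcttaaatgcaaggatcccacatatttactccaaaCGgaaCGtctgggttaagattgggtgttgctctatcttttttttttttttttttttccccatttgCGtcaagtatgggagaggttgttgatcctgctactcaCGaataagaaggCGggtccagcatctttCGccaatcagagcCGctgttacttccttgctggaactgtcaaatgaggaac
The 250 bases of Zfp788 hold 4 CpG, the 237 of Zfp143 hold 13, the 223 of Zfp719 hold 9 and the 250 of Zfp101 hold 11. The peaks of Zfp143, Zfp719 and Zfp101 overlap these stretches, while the strongest summits of Zfp788 lie upstream of its own.

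The ZNF143 motif is the second kind of sequence shown. It stood in 5 of the 146 members with an entry in the promoter table (3.42%), in 4 of 159 promoters of the other Zfp genes (2.52%) and in 0.440% of all 17491 promoters. ZNF143, the human counterpart of Zfp143, is a transcription activator with its own zinc fingers. The capitals mark the 11 letters of the motif as they read on the gene's strand.
Zfp128: ggccttctgGGAATTGTAGTctca
Zfp180: agagttctgGGAATTGTAGTtccattgag
Zfp58: agacttgtgGGAATTGTAGTctggccact
Zfp93: ggaattctgGGAATTGTAGTtccaacgcc
Zfp108: ggcattctgGGAATTGTAGTtctggagcc
These stretches lie at chr7:12881154-12881177 (+), chr7:24081866-24081894 (+), chr13:67500533-67500561 (-), chr7:24270338-24270366 (+) and chr7:24254718-24254746 (+) in GRCm38.p6. Within them the motif begins 15, 22, 30, 71 and 67 bases before the start, always in the same direction. Zfp128 had a peak over its start in every list, with folds of 4.49 in basal WT, 4.55 in KCl WT, 3.25 in basal cKO and 4.61 in KCl cKO. Zfp180 also had one in every list, with 3.91, 3.48, 3.81 and 4.03. Zfp58 was listed in basal WT at 2.53, KCl WT at 3.47 and KCl cKO at 2.99, with none in basal cKO. Zfp93 had a gene-end peak in basal cKO alone, at 2.77, with its summit at -2867 bases from the start that carries the motif, and Zfp108 had none in any list. Zfp93 also had a peak within 1 kb of the start that carries the motif in basal WT, KCl WT and basal cKO. A match of letters is a description. A gene-end peak stood somewhere at 4 of these 5 genes, beside 116 of all 163 members.

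The share of members with a gene-end peak was near that of all genes in 3 of the 4 lists. In basal WT 86 of 163 had one, 52.8% (interval 44.8 to 60.6), against 46.5% of all genes and 63.2% of the Zfp genes of other chromosomes. In KCl WT 71 had one, 43.6% (35.8 to 51.5), against 39.8% and 52.0%. In basal cKO 66 had one, 40.5% (32.9 to 48.4), against 38.8% and 51.0%. In KCl cKO 91 had one, 55.8% (47.9 to 63.6), against 45.2% and 60.8%. The background lay inside the members' interval in the first 3 of these lists and under it in KCl cKO. The members' share was highest in KCl cKO, although basal WT was the longest list. The folds of their peaks were ordinary: the median was 3.46, 3.37, 3.15 and 3.53, beside 3.30, 3.36, 3.22 and 3.53 over all gene-end peaks. In basal WT 15.6% of the members' peaks were among the top 10% of the list by fold, against 24.8% of all gene-end peaks.

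What the members shared was less overlap between the lists. A gene-end peak in all 4 lists was found for 39, 23.9% (17.6 to 31.2), against 44.1% (37.2 to 51.2) of the other Zfp genes. The 29.0% of all genes and the 25.2% of the other genes of chromosomes 7, 13 and 17 lay inside the members' interval. No list held a gene-end peak of 47 members, 28.8%, against 43.1% of all genes and 30.9% of the other Zfp genes. So of the 116 members with a peak anywhere, 33.6% (25.1 to 43.0) had it in every list. The share was 63.8% (55.3 to 71.7) for such Zfp genes elsewhere and 51.0% for all such genes. For such other genes of chromosomes 7, 13 and 17 it was 48.9%. The intervals of the members and of the other Zfp genes do not overlap. Counted over merged peak regions, which gives each place 1 vote, 38 of 132 regions at member ends (28.8%) were in 4 lists, against 51.1% of those at other Zfp genes and 38.5% at all genes. At 6 of the 132 regions the ends of 2 members met.

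**Figure D1:**
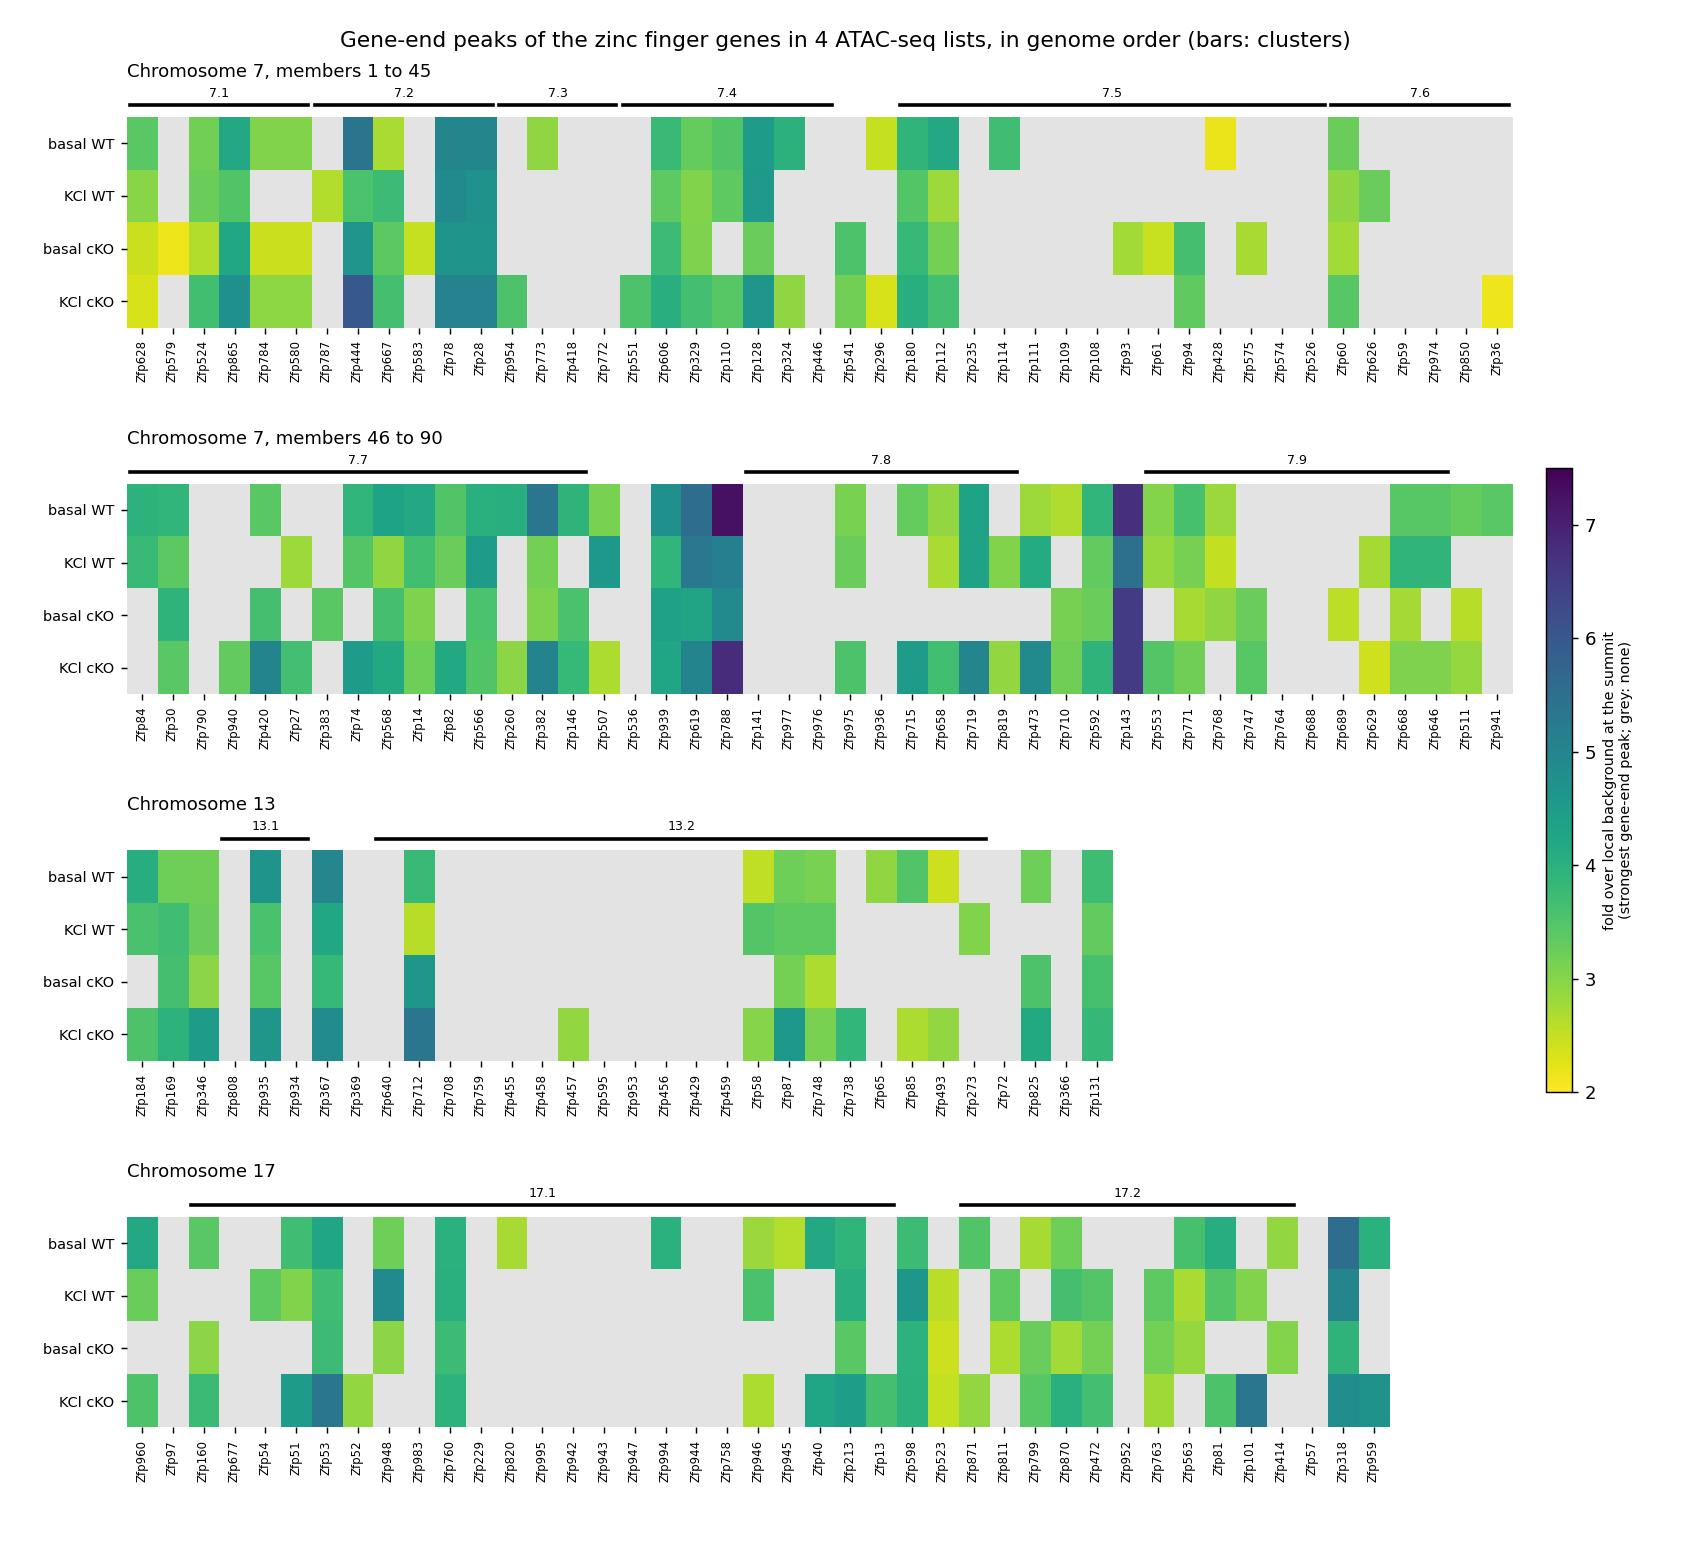
Each column is 1 of the 163 genes in genome order and each row 1 of the 4 lists; colour gives the fold of the strongest gene-end peak over the local background, grey means no gene-end peak, and black bars mark clusters of at least 3 members. Columns coloured in all 4 rows number 39 and fully grey ones 47, and the basal cKO row is grey throughout the cluster marked 7.8.

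Zfp143, the activator named above, and Zfp788 had high folds among the 39 genes listed everywhere. Zfp143 had folds of 6.73 in basal WT, 5.46 in KCl WT, 6.55 in basal cKO and 6.52 in KCl cKO, with 87, 59, 82 and 74 fragments at the summit. The summits of these peaks lay at -175, -184, -171 and -168 bases from its start, inside the stretch printed above. Zfp788 had 7.25, 5.13, 4.87 and 6.81, and the strongest summit lay at -527, -510, -509 and -495 bases from the start, upstream of its printed stretch. Zfp619 had 5.54, 5.31, 4.30 and 5.02. Zfp78 and Zfp28, whose ends lie within 1 kb of each other and share peaks, had 4.97, 4.88, 4.65 and 5.07 and 4.97, 4.70, 4.65 and 5.07. Zfp318, a large nuclear protein gene outside the clusters, had 5.53, 5.00, 3.93 and 4.81. At the lower end, Zfp628 had 3.41, 2.98, 2.45 and 2.33, Zfp524 3.17, 3.23, 2.63 and 3.67, and Zfp712 3.79, 2.60, 4.58 and 5.34. The 39 genes had median folds of 3.91, 3.57, 3.60 and 4.06.

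Some members have a known role of their own. Zfp568, a KRAB zinc finger repressor needed in the mouse embryo, was listed at 4.31, 2.92, 3.63 and 4.16. Zfp382, for which no role is given here, had 5.34, 3.14, 3.06 and 5.02. Of the 39 members in all 4 lists, 13 had their highest fold in basal WT and 19 in KCl cKO. This count was not made for the 6354 of all genes in all 4 lists, and the fold ranks peaks within a list only. Over all gene-end peaks the median fold was 3.30, 3.36, 3.22 and 3.53, so it was highest in KCl cKO as well. Zfp57, which keeps methylation at imprinted genes, had no gene-end peak, but a peak stood within 1 kb of a start in the promoter table in basal WT and basal cKO. Zfp110, known as the neurotrophin receptor interacting factor, had 3.50 in basal WT, 3.36 in KCl WT and 3.42 in KCl cKO. Zfp36 encodes tristetraprolin, an RNA-binding protein that is no C2H2 protein and shares only the symbol. It had 1 gene-end peak, at 2.14 in KCl cKO, past its 3′ end at chr7:28375582-28375835 and away from its start.

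Between the genotypes without KCl, most of the difference was WT peaks missing from the cKO list, as it was over all genes. The basal WT list was the longer one, with 34061 peaks against 20484. With the lists cut to equal length, the members' counts were 28 in this direction and 16 in the reverse. Gene-end peaks were present in basal WT and absent from basal cKO for 34 members (20.9%), where 11.9% of all genes were so. The reverse held for 14 members (8.59%), against a background of 4.25%, and 52 had a peak in both. Of the 86 members listed in basal WT, 39.5% (29.2 to 50.7) lacked a peak in basal cKO, against 22.5% of the other Zfp genes and 25.7% of all genes. The 34 were led by Zfp719 at a fold of 4.31, Zfp40 and Zfp960 both at 4.18, and Zfp184 and Zfp81 both at 4.08. Their median fold in basal WT was 3.46, with a range from 2.16 to 4.31, beside 3.76 for the 52 in both lists. In the KCl cKO list 25 of the 34 had a gene-end peak, and 17 had one in KCl WT. Split by the KCl lists, 16 had one in both, 9 in KCl cKO only, 1 in KCl WT only and 8 in neither. For the 2615 of all genes that were in basal WT and not in basal cKO, these counts were 806, 640, 278 and 891. The 14 in the other direction were led by Zfp94 at 3.63, Zfp541 at 3.53, Zfp383 at 3.42, Zfp747 at 3.25 and Zfp472 at 3.15, and their median was 2.74.

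After KCl the direction was the opposite, again as over all genes. The KCl cKO list was the longer one, with 25690 peaks against 20229. At equal list length the members' counts were 27 for KCl cKO without KCl WT and 13 for the reverse. In KCl cKO and not in KCl WT, 29 members had a gene-end peak (17.8%), against 10.1% of all genes. In KCl WT and not in KCl cKO there were 9 (5.52%), against 4.70%, and 62 members had one in both. The 29 were led by Zfp420 at 5.02, Zfp959 at 4.70, Zfp715 at 4.49, Zfp40 at 4.28 and Zfp825 at 4.17. Each of these 5 was also listed in basal WT, at 3.40, 3.98, 3.30, 4.18 and 3.21 in that order. The 9 were led by Zfp948 at 4.87 and Zfp84 at 3.78, followed by Zfp54 and Zfp811 at 3.36 and Zfp626 at 3.25. Zfp948 had 3.21 in basal WT and 2.96 in basal cKO, so the KCl cKO list was the 1 list without a peak there.

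KCl within WT neurons went with fewer listed ends, as it did over all genes and in the length of the lists. At equal list length the members' counts were 20 for basal WT without KCl WT and 14 for the reverse. A gene-end peak in basal WT and none in KCl WT was found for 27 members (16.6%), against 11.5% of all genes, and the reverse for 12 (7.36%), against 4.73%. In both WT lists 59 had one. The 27 were led by Zfp40 at 4.18, Zfp260 at 4.04, Zfp959 and Zfp994 at 3.98 and Zfp324 at 3.97. The 12 were led by Zfp472 at 3.47, then Zfp54, Zfp763 and Zfp811 at 3.36 and Zfp626 at 3.25.

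KCl within cKO neurons went with more listed ends, as it did over all genes and in the length of the lists. At equal list length the members' counts were 33 for KCl cKO without basal cKO and 13 for the reverse. A gene-end peak in KCl cKO and none in basal cKO was found for 37 members (22.7%), against 11.0% of all genes, and the reverse for 12 (7.36%), against 4.59%, with 54 in both. Of the 91 members listed in KCl cKO, 40.7% (30.5 to 51.5) had none in basal cKO, against 20.2% of the other Zfp genes and 24.3% of all genes. The 37 were led by Zfp101 at 5.34, Zfp719 at 4.99, Zfp473 at 4.86, Zfp959 at 4.70 and Zfp51 at 4.49, and the end of Zfp473 lies within 1 kb of an end of Vrk3. In basal WT 25 of the 37 had a gene-end peak and in KCl WT 20. Split by the WT lists, 16 had one in both, 9 in basal WT only, 4 in KCl WT only and 8 in neither. For the 2402 of all genes that were in KCl cKO and not in basal cKO, these counts were 806, 640, 285 and 671. The 12 were led by Zfp383 at 3.42, Zfp414 at 3.02, Zfp948 at 2.96, Zfp768 at 2.90 and Zfp563 at 2.86.

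**Figure D2:**
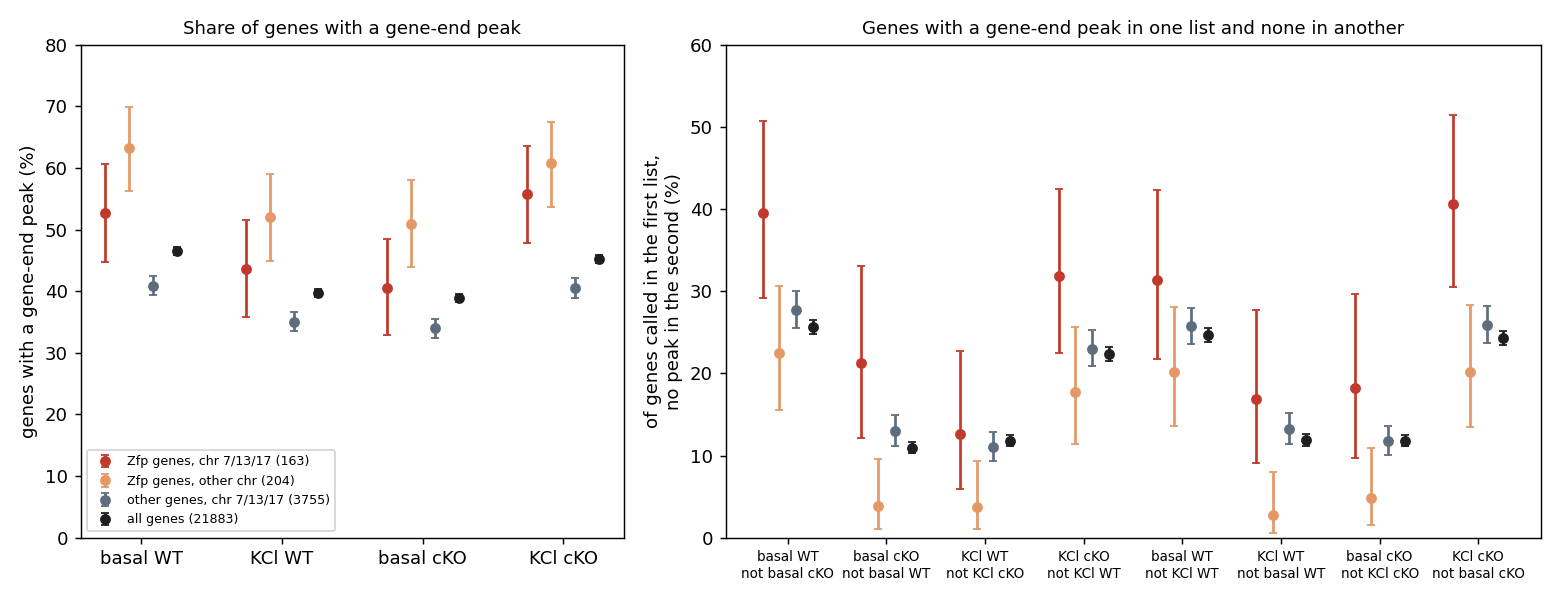
Left, the share of genes with a gene-end peak in each list; right, of the genes with one in the first list named, the share with none in the second. Points are shares and bars exact 95% intervals of counting error, for the 163 members, 204 other Zfp genes, 3755 other genes of the same chromosomes and all 21883 genes. The members' points on the right lie above those of the other Zfp genes in all 8 directions, at 39.5% against 22.5% for basal WT not basal cKO.

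Gene-end peaks without a match in another list were mostly weak, and for the members some were not. Over all genes, those of basal WT that overlapped no peak of basal cKO had a median fold of 2.77, against 3.79 for the matched ones, and at members the medians were 3.19 and 3.76. Gene-end peaks of a list were ranked by fold and the upper tertile taken, which began at 3.79 in basal WT and at 4.06 in KCl cKO. Of 35 member peaks in the upper tertile of basal WT, 11 (31.4%) overlapped no peak of basal cKO, against 1 of 71 peaks (1.41%) at other Zfp genes and 5.70% of all. Of 31 in the upper tertile of KCl cKO, 10 (32.3%) overlapped none of basal cKO, against 2 of 67 (2.99%) and 5.57%. Between the KCl lists 5 of the 31 (16.1%) overlapped none of KCl WT, against 2 of 67 and 4.65%. Peaks of the upper tertile of basal cKO were nearly all matched, at members and over all genes. At members 1 of 21 was unmatched in basal WT, against 0 of 55 at other Zfp genes and 1.33% of all. In KCl cKO 1 of 21 was unmatched, against 0 of 55 and 1.26%.

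**Figure D3:**
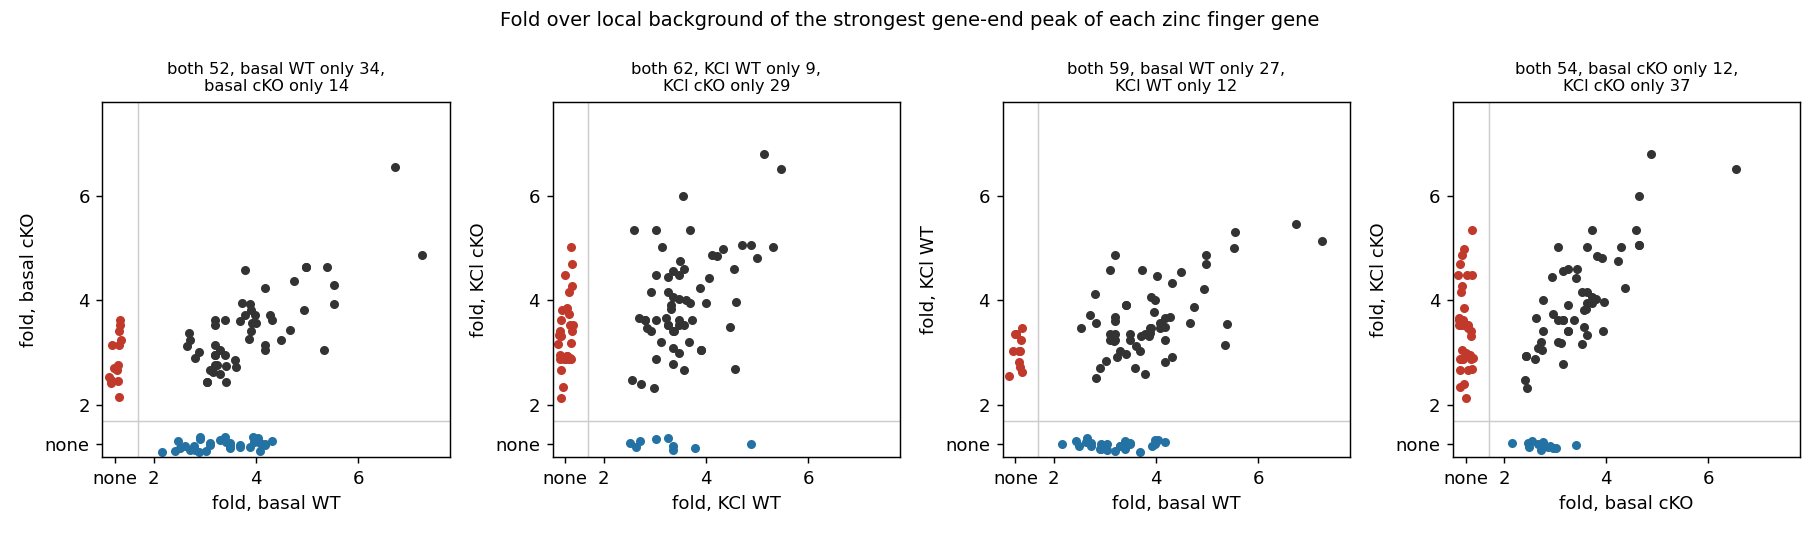
Fold of each member's strongest gene-end peak in 2 lists, 1 panel per comparison; black points have a peak in both lists, and blue or red points only in the list of the x or the y axis, set at the position marked none. The 34 blue points of the first panel reach a fold of 4.31 and the 37 red points of the last reach 5.34.

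The exact set of lists places each member once. The most frequent set after all 4 was all but basal cKO, with 16 members (9.82%, 5.72 to 15.5), against 3.68% of all genes and 5.39% of the other Zfp genes. These were Zfp51, Zfp58, Zfp74, Zfp81, Zfp82, Zfp110, Zfp184, Zfp473, Zfp507, Zfp553, Zfp646, Zfp658, Zfp719, Zfp946, Zfp960 and Zfp975. The merged region at Zfp646 did hold a basal cKO peak, at 2.75. That peak lay more than 1 kb from the ends of Zfp646 and counted for Zfp668 only. The KCl WT peak of Zfp110 did not overlap its peaks of basal WT and KCl cKO. Zfp719 had 4.31, 4.33 and 4.99 in basal WT, KCl WT and KCl cKO, Zfp184 had 4.08, 3.57 and 3.53, and Zfp51 had 3.69, 3.03 and 4.49. The set of all but KCl WT had 9 members, against 3.19% of all genes, with Zfp420 at 3.40, 3.63 and 5.02 the highest. All but KCl cKO held Zfp948, Zfp563 and Zfp768, against 1.07%, and all but basal WT held Zfp472, Zfp763 and Zfp523, against 1.06%.

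Sets that split by genotype or by KCl alone were small. Both KCl lists and neither basal list held a peak at 4 members, against 1.30% of all genes: Zfp101 at 3.03 in KCl WT and 5.34 in KCl cKO, Zfp27 at 2.82 and 3.63, Zfp819 at 3.03 and 2.89, and Zfp629 at 2.73 and 2.39. A peak within 1 kb of a start in the promoter table stood at Zfp629 in basal WT as well. Zfp101 was the strongest of them, and its start stood without a peak in both basal lists. Both cKO lists alone held Zfp94 at 3.63 and 3.34, Zfp541 at 3.53 and 3.17 and Zfp747 at 3.25 and 3.42, against 0.941%. Zfp541 is a gene known from the testis. Both WT lists alone held Zfp84, at 3.95 and 3.78, against 1.27%. Both basal lists alone held Zfp414, at 2.90 and 3.02, also against 1.27%.

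The set of basal WT and KCl cKO, which agree neither in genotype nor in KCl, held 9 members (5.52%, exact interval 2.56 to 10.2), against 2.92% of all genes and 3.92% of the other Zfp genes. They were Zfp40 at 4.18 and 4.28, Zfp959 at 3.98 and 4.70, Zfp260 at 4.04 and 2.96, Zfp324 at 3.97 and 2.90, and Zfp85, Zfp296, Zfp493, Zfp715 and Zfp871. The other crossed set, KCl WT and basal cKO, held Zfp811 alone, at 3.36 and 2.67, against 0.580%. A single list held the peak of 27 members. In basal WT these were 8 (background 4.07%), led by Zfp994 at 3.98, Zfp114 at 3.69 and Zfp941 at 3.40, then Zfp65 and Zfp773 at 2.91. In KCl cKO these were 8 (3.07%), led by Zfp738 at 3.85, Zfp13 at 3.62, Zfp551 and Zfp954 at 3.53 and Zfp940 at 3.31. In basal cKO these were 7 (1.67%), led by Zfp383 at 3.42, Zfp93 at 2.77, Zfp575 at 2.72, Zfp689 at 2.54 and Zfp583 at 2.48. In KCl WT these were 4 (1.78%), Zfp54 at 3.36, Zfp626 at 3.25, Zfp273 at 3.03 and Zfp787 at 2.64. The listed peak of Zfp787 lay at its other end, and at a start of the promoter table the gene had a peak in all 4 lists.

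**Figure D4:**
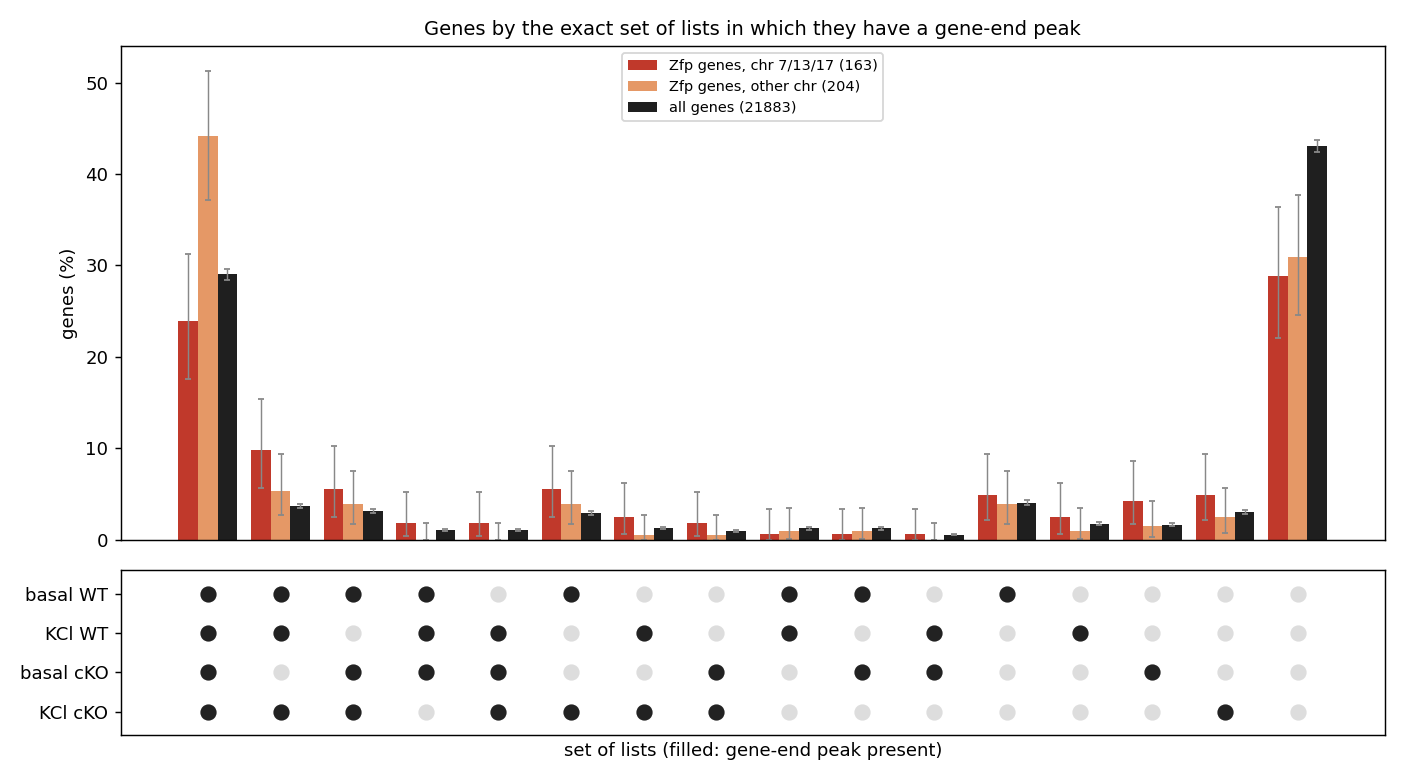
Bars give the percent of the 163 members, the 204 other Zfp genes and all 21883 genes whose gene-end peaks stand in exactly the lists filled below, with exact 95% intervals of counting error. All 4 lists hold 23.9% of the members and 44.1% of the other Zfp genes, and the set without basal cKO holds 9.82% and 5.39%.

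The members sit in families along the chromosomes, and the families differed. Joined where gaps were at most 500 kb, 13 clusters of at least 3 members held 134 of the 163. In clusters 28 members (20.9%, 14.4 to 28.8) were listed everywhere and 41 (30.6%) nowhere. Of the 29 outside, 11 (37.9%, 20.7 to 57.7) were listed everywhere and 6 (20.7%) nowhere. In basal WT 48.5% of clustered and 72.4% of other members had a gene-end peak. By chromosome, the share in basal WT, KCl WT, basal cKO and KCl cKO was 56.7, 46.7, 46.7 and 61.1% on chromosome 7, 43.8, 34.4, 28.1 and 46.9% on chromosome 13, and 51.2, 43.9, 36.6 and 51.2% on chromosome 17.

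The cluster of chromosome 7 from Zfp141 to Zfp819 (42473386 to 43618279) had gene-end peaks at 4, 4, 0 and 5 of its 9 members in that order of lists. Zfp719 and Zfp658 lie in it and were listed in all but basal cKO, as was Zfp975. The 19 other genes of the same stretch had 4, 3, 5 and 3, so the basal cKO list was not empty there. With the starts of the promoter table in place of gene ends the members' counts were 4, 5, 1 and 5. The cluster from Zfp84 to Zfp146 (chromosome 7, 29768552 to 30169775) was covered more fully, with 11, 9, 8 and 12 of 15 members, and 1 member without a peak in any list. The cluster from Zfp180 to Zfp526 (chromosome 7, 24081877 to 25227876) had 4, 2, 6 and 3 of 14, with the highest count in basal cKO. That order rested on the ends used, since at the starts of the promoter table the counts were 8, 5, 7 and 6. The 30 other genes of this stretch had 14, 11, 10 and 10 gene-end peaks listed, with no rise in basal cKO.

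On chromosome 13, the cluster from Zfp640 to Zfp273 (66670274 to 67827000) had 7, 5, 3 and 8 of 20 members listed and 10 with no peak in any list. The members without one lay side by side: from Zfp708 to Zfp459, Zfp457 alone had a gene-end peak, at 2.89 in KCl cKO, although Zfp458, Zfp595 and Zfp708 had a peak at a start of the promoter table. Of the 11 other genes in the cluster's stretch, 3, 2, 2 and 2 were listed. On chromosome 17, the cluster from Zfp160 to Zfp13 (21008941 to 23599755) had 11, 7, 5 and 9 of 23, with 9 in no list, and none of the 16 other genes between them had a peak in any list. Its neighbour from Zfp871 to Zfp414 (32765496 to 33631716) had 6, 7, 7 and 7 of 11, yet a single member, Zfp870, was in all 4 lists. There the lists held nearly equal numbers at different members. Of the 13 other genes of that stretch, 2, 0, 1 and 0 were listed.

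Members without peaks included near-identical copies of each other. For 17 of the 146 members with a promoter entry, at least 1 word of 50 bases of the 300-base window recurred in a promoter window at another place. Only 3 of these 17 (17.6%, 3.80 to 43.4) had a gene-end peak in any list, namely Zfp994, Zfp959 and Zfp975, and none in all 4, against 101 of the other 129 (78.3%, 70.2 to 85.1). The clearest case is a head-to-head pair on chromosome 17, Zfp942 and Zfp943, that recurs as Zfp944 and Zfp758 about 399 kb away. Aligned, the windows of Zfp942 and Zfp944 agreed at 274 of 275 bases and those of Zfp943 and Zfp758 at 292 of 293. The DNA between the starts of each pair is shown on the + strand with CpG in capitals, at chr17:21962465-21962558 and chr17:22361401-22361462 (GRCm38.p6).
Zfp942 to Zfp943: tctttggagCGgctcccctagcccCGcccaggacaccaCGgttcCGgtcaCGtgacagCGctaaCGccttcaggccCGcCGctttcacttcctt
Zfp944 to Zfp758: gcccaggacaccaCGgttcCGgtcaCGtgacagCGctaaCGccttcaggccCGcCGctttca
The shorter stretch of 62 bases occurs whole in the longer one of 94, from its base 26 on. The 4 windows hold 20 to 22 CpG each, and no list had a peak at any of the 4 genes. How reads with several equal matches were handled is not given in the sources used here, so a closed promoter and one without uniquely placed reads cannot be told apart.

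The number of CpG in the window went with the number of lists. Members in 0, 1, 2, 3 and 4 lists had a median of 9, 10, 9, 12.5 and 17 CpG per 300 bases, and over all members with an entry the median was 12, against 16 at other Zfp genes and 13 at all genes. Among windows with at most 7 CpG, 17 of 32 members (53.1%, 34.7 to 70.9) had a gene-end peak in some list but 0 in all 4, against 19.8% of all such genes in some list and 267 of 6683 in all 4. Among windows with 15 or more, 43 of 55 (78.2%) had one in some list and 23 (41.8%, 28.7 to 55.9) in all 4, against 85.8% and 52.8% of all such genes. Zfp788, with 8 CpG in its window, had the highest fold of all members in basal WT, but its strongest summit lay upstream of that window.

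**Figure D5:**
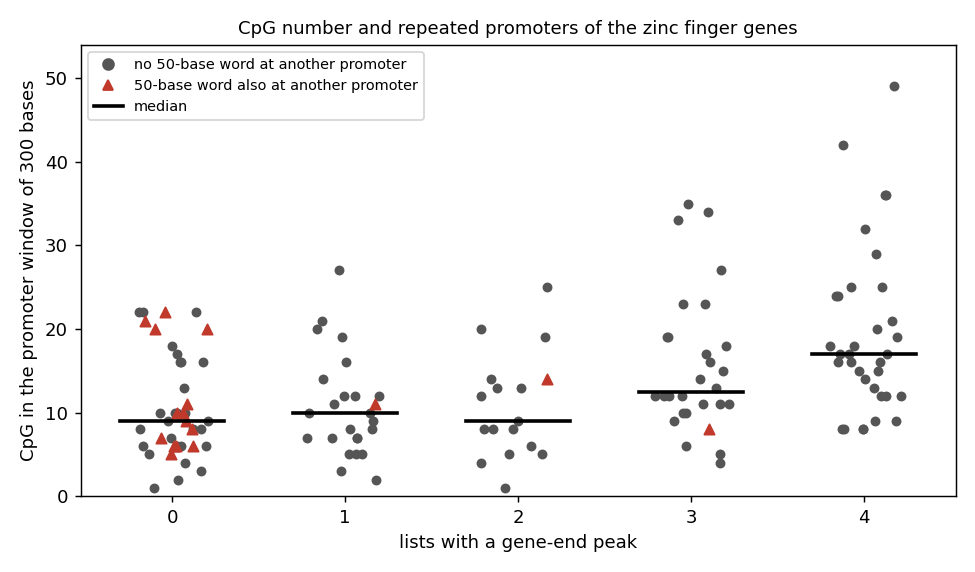
Each point is 1 of the 146 members with a promoter entry, placed by the number of lists with a gene-end peak and the CpG in its 300-base window; lines are medians and red triangles are the 17 members whose window shares a 50-base word with another promoter. The medians run from 9 at 0 lists to 17 at 4 lists, and 14 of the 17 triangles stand at 0 lists.

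Other motifs were sought on both strands of the same windows. The ETS letters CCGGAAGT stood in 16 members (11.0%, against 8.81% of the other Zfp promoters and 5.28% of all promoters), the E-box CACGTG in 17 (11.6% against 7 of the 159 other Zfp promoters and 7.91% of all) and the CREB site TGACGTCA in 6 (4.11% against 1.89% and 2.33%). The NRF1 motif, named alone here, stood in 7 (4.79% against 2.52% and 1.33%), among them Zfp719 and Zfp82. Of these 7, 6 had a gene-end peak in some list, beside 116 of all 163 members. CCAAT was found in 69 (47.3% against 53.5% and 39.2%). The AP-1 letters TGANTCA stood in 5 (3.42% against 3.14% and 7.03%), TATAAA in 9 (6.16% against 6.29% and 13.3%), the SP site GGGCGGGG in 26 (17.8% against 20.8% and 23.8%), and the YY1 motif in 1. The shares are descriptions, and windows of duplicated genes are not independent.

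Where the strand is known from the promoter table, the members' peaks were mostly at starts. There were 100, 75, 80 and 108 pairs of a member and a peak in the 4 lists. Of these, 77, 63, 66 and 86 lay within 1 kb of the annotated start and 9, 3, 8 and 9 within 1 kb of the other end only. A peak within reach of both ends counted at the start, and for the rest no strand was given. These positions were not counted over all genes. The summits at starts had a median position of -36, -32, -13 and -19 bases from the start. For 13 members every gene-end peak also lay within 1 kb of another gene's end. Inside the genes, more than 1 kb from both ends, 43, 34, 27 and 36 members had at least 1 peak. The share over all genes is not given for such peaks. Zfp536, a repressor gene of the nervous system, had no gene-end peak but 15, 4, 8 and 9 peaks inside.

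Gene ends missed some starts. For 25 members a start of the promoter table lies more than 1 kb inside the annotated end, and 13 of the 47 members without a gene-end peak had a peak within 1 kb of a start listed there. Zfp526 and Zfp790 had one in all 4 lists, and Zfp708, a KRAB zinc finger gene, in basal WT, KCl WT and KCl cKO. Zfp93 and Zfp583, placed above in basal cKO alone, had peaks at these starts in basal WT, KCl WT and basal cKO. Zfp787 had one in all 4 lists, and Zfp629 in all but basal cKO. Zfp541, placed in both cKO lists, had one in basal cKO, and Zfp296 and Zfp626 had none at these starts in any list.

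The KRAB zinc finger proteins act through a shared set of cofactors, whose genes are given for comparison. Of 30 corepressor genes, 23, 23, 21 and 24 had a gene-end peak in the 4 lists and 20 (66.7%) had one in all. Over all genes the shares were 46.5, 39.8, 38.8 and 45.2%, and 29.0% in all 4. Trim28, the central corepressor, had 3.92, 3.50, 4.03 and 4.48. Setdb1, the methyltransferase it recruits, had a gene-end peak in KCl WT alone, at 3.90. Atrx had one in KCl cKO alone, at 3.21. Dnmt1, Dnmt3a and Tasor were among those with none. For the corepressor genes, peaks at starts of the promoter table were not checked.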

How the data were processed

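ATAC-seq libraries of 8 neuron cultures, 2 per condition, were deposited as 4 lists of nucleosome-free peaks, 1 per condition. Bowtie2 and MACS2 and the builds GRCm38 and mm10 (1 assembly) are named, per the submitters' processing notes. Not given in the sources used here were versions, settings, the Tn5 shift, duplicate and multi-mapping handling and the merging of libraries. Each deposited list gives a score, a fold (a ratio over local background at the summit), the −log10 of the p-value and q-value, and the summit offset in bp, in the usual narrowPeak order. The lowest deposited −log10 q of a list was 1.31 to 1.51, so presence is a threshold call on few fragments.

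Fold and −log10 p were solved for the fragment pileup and background (pseudocount of 1). A whole pileup solved 100% of peaks within 0.001 in −log10 p. The reads behind each list are not known. Peaks on the mitochondrial chromosome (5 per list) were left out, and no columns of unmatched samples were present (0). Gene ends came from RefSeq GRCm38.p6, and strand, starts and 300-base windows (250 before, 50 after the start) from the RefSeq promoter table, where 146 of 163 members matched by gene ID. The outermost start served where a gene had several. Motifs, CpG and 50-base words were counted in these windows. A match between lists was an overlap of 1 bp or more. The rules were tested on simulated data. Named genes were the 5 with the highest fold in each direction of each comparison, the 6 highest and 3 lowest of those in all 4 lists, up to 5 of each set of lists, and members with a known role. Other genes are named where a motif, a cluster or a small count singles them out, chosen after their values were seen. Rules on protein features and finger number were not run because no protein table was used here. Members and gene lists were chosen with earlier results of these data known. The 4 comparisons share lists. Python 3.11.15, pandas 2.3.3, numpy 2.4.6, scipy 1.17.1, Biopython 1.88 and matplotlib 3.10.9 were used.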

Additional observations from a re-analysis of the deposited data

Results flagged for a closer look

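Before KCl 9 members had a gene-end peak in WT and none in cKO, and after KCl the same 9 had one in cKO and none in WT: Zfp40, Zfp85, Zfp260, Zfp296, Zfp324, Zfp493, Zfp715, Zfp871 and Zfp959. At these genes the presence calls changed in opposite directions between the basal and KCl lists of the 2 genotypes. The peak of Zfp296 lay within 1 kb of an end of Clasrp, and no list had one at its start in the promoter table. The 9 were 5.52% of the members (exact 95% interval 2.56 to 10.2), a range that holds the 2.92% of all genes and the 3.92% of the other Zfp genes. The opposite crossing was found for 1 member, Zfp811, and for 0.580% of all genes. With 1 list per condition the difference was not tested.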

How the results depend on the processing

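With 22 counts (14 of members and 8 of peaks) recomputed under 12 alternatives, all 158 alternative values stayed within 1.5 times of the value reported. The alternatives were a gene-end distance of 500 bp or 2 kb, gene starts only, a −log10 q of at least 3 in the first list or in both, an overlap of 50%, the lists cut to an equal 20229 peaks, symbols with any ending (176 genes), and members with peaks shared with another gene left out. Starts of the promoter table and leaving out repeated promoters were added after seeing the data. At equal list length, 28 members had a gene-end peak in basal WT and none in basal cKO and 16 the reverse. For KCl cKO and KCl WT these were 27 and 13, for basal WT and KCl WT 20 and 14, and for KCl cKO and basal cKO 33 and 13. The cut lists were counted for members only, so no share of all genes stands beside these counts. No paired analysis was possible because each condition has 1 pooled list, and for the same reason no library could be left out. Depth limits the calls, since peaks with a summit near 25 fragments sit close to the threshold.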
